A study of Mus musculus with 48 samples.

Results

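The comparison concerned 12 of the 48 hourly liver pools of a circadian time course, the last 6 pools (CT60 to CT65) set against the 6 pools taken 24 h earlier (CT36 to CT41). Pools were chosen by their labelled circadian time (CT) alone, and each pool was paired with the pool of the same circadian hour, which gave 6 pairs. All pools came from whole liver of wild-type male C57BL/6J mice about 6 weeks of age, entrained to 12 h of light and 12 h of dark and then kept in constant darkness, with no other treatment in either group. Subjective night begins at CT12, so both groups cover its early and middle hours. RNA of 3 to 5 mice was pooled and read on 1 Affymetrix expression array per hour. There was no second array for any hour, so the p-values below measure the spread between the 6 hour pairs. Neither the pools nor the comparison were set up by the study as treated and control animals: the question is whether the same hours on consecutive days gave the same expression.

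The liver clock is a loop in which CLOCK and BMAL1 (Arntl) activate the Per, Cry and Nr1d genes, whose products repress that loop. Its output, together with feeding, insulin and body temperature, sets daily rhythms in fatty acid synthesis, bile acid synthesis and detoxification. In a stable rhythm in constant darkness, liver taken at the same circadian hour on consecutive days has a similar transcript profile. Most liver RNA comes from hepatocytes, with smaller amounts from sinusoidal endothelial cells, Kupffer cells and stellate cells.

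Values are intensities on a linear scale, changes are differences of log2 intensity (CT60 to CT65 minus CT36 to CT41), and a probe set or gene is called lower or higher where limma's test on the 6 paired differences gave an adjusted p under 0.05. Of 45101 probe sets, 5005 were called lower (11.1%) and 17130 higher (38%). The 2 directions were unlike each other. Probe sets called lower had a median difference of -0.59 and 2530 of them passed 1.5-fold, whereas probe sets called higher had a median difference of only 0.08, 408 passed 1.5-fold and 74.7% had a mean intensity below 100, near the background of the array. Read through 1 probe set each, 2961 of 18194 genes were called lower (16.3%) and 6055 higher (33.3%). Among the 11185 genes with a mean intensity of at least 100, 2958 were called lower (26.4%) and 1903 higher (17%). These shares are the background for the gene groups below, but they are not matched for intensity, on which the shares depended. Of probe sets between 100 and 200, 33.1% were called higher and 1.76% lower. Between 2000 and 5000 the shares were 12.9% higher and 36.5% lower, and above 50000 they were 32% and 26.3%. Within the 11185 genes the last 6 pools lay wholly below the 6 earlier pools for 1042 of the genes called lower. They lay wholly above them for 743 of those called higher.

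The balance of the directions depended on how the arrays were scaled. After quantile normalization, which gives every array the same distribution of values, 1529 genes were called lower (8.4%) and 1492 higher (8.2%). For probe sets the split was 2723 lower and 3042 higher after quantile normalization, 17393 and 1726 with arrays centred on the median, and 3334 and 32549 with arrays divided by the 75th percentile. The median difference of all genes was 0.05 as deposited, 0.00 after quantile normalization, -0.07 after centring and 0.27 after division by the 75th percentile, and every change below is best read against that shift. Of the probe sets called lower as deposited, 1996 were also called lower under all 3 scalings, and of those called higher 1370 were also called higher.

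The last 6 hours held more calls than the other hours of the second day. Single pairs held between 2501 and 5064 probe sets over 1.5-fold lower and between 1296 and 2301 over 1.5-fold higher, with the most at CT61. The same test called 92 lower and 39 higher for CT42 to CT47 against CT18 to CT23 (3716 lower and 12820 higher at an unadjusted p under 0.05, against 5973 and 20886 for CT60 to CT65). For CT48 to CT53 against CT24 to CT29 limma called 0 in both directions (1303 lower and 3375 higher at an unadjusted p under 0.05), and for CT54 to CT59 against CT30 to CT35 it again called 0 (1399 and 1155). Isolated earlier pools also differed widely from the day before, with 3580 probe sets over 1.5-fold lower at CT46, 3602 at CT51 and 2924 at CT55, each above the 2501 of CT60, while the pools directly before and after these held between 434 and 2193. In 2 of these pairs the first-day array had the lower median correlation with the other arrays: CT27 (0.989, against 0.995 at CT51) and CT31 (0.990, against 0.994 at CT55). For CT46 the later array was the lower (0.990, against 0.994 at CT22). CT27 and CT31 also enter the other blocks in the next test. The difference between the change at CT60 to CT65 and the mean change in the 3 other blocks of 6 h was tested in a fit over all 48 pools: it was negative for 3696 probe sets (8.19%) and positive for 3220 (7.14%), or 2143 genes (11.8%) and 1255 genes (6.9%). Of the 5005 probe sets called lower, 3332 were among the 3696, and of the 17130 called higher, 2648 were among the 3220.

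**Figure D1:**
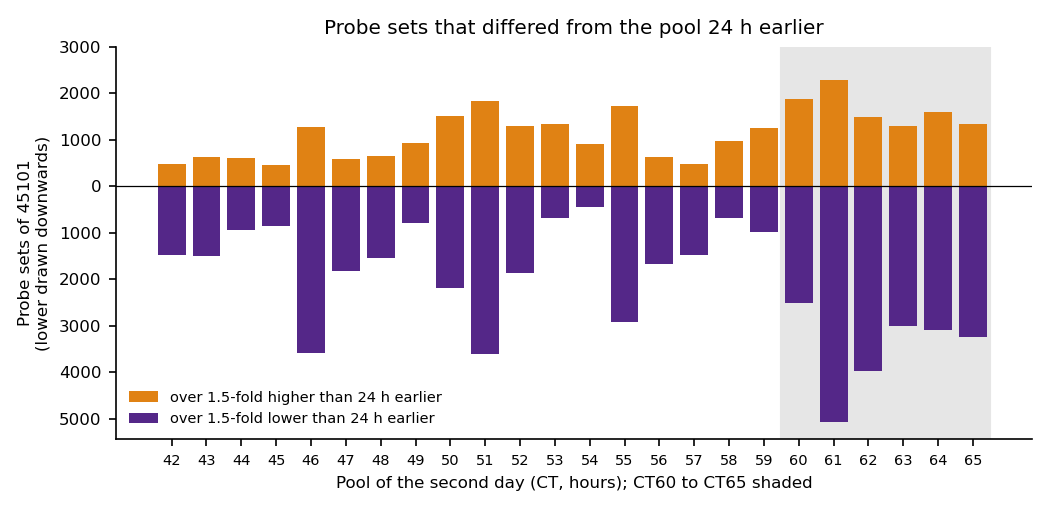
Number of probe sets of 45101 that differed more than 1.5-fold from the pool 24 h earlier, for each pool from CT42 to CT65 (x axis, hours), with higher ones drawn upwards and lower ones downwards. In the shaded pools CT60 to CT65 the number of lower probe sets stays between 2501 and 5064, whereas the earlier high bars of 3580 at CT46, 3602 at CT51 and 2924 at CT55 have neighbours of 434 to 2193.

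The arrays of the last 6 pools differed from the earlier 6 in measures that belong to no gene, and these values stand beside every result below. The 75th percentile of log2 intensity was 9.71 ± 0.087 (SD, n = 6 pools) in CT60 to CT65 and 9.94 ± 0.054 in CT36 to CT41, and the median was 6.75 ± 0.036 in CT60 to CT65 and 6.64 ± 0.028 in CT36 to CT41. By mean intensity, the median difference was 0.06 for probe sets below 100 and -0.20 for those between 1000 and 2000, and it was 0.04 for those above 50000. The bacterial and phage transcripts added to every hybridization (bioB, bioC, bioD and cre), which no liver produces, were higher by 0.63 on average, and all 9 of their probe sets were called higher, by 0.31 to 0.85. Their mean log2 ran from 15.18 to 15.95 in CT60 to CT65 and from 14.47 to 15.20 in CT36 to CT41. Levels within the late range also occurred elsewhere, with 15.75 at CT51 and 15.36 at CT52. The transcripts added before labelling (dap, lys, phe and thr) showed no call among 12 probe sets, although all 12 differences were below 0, from -0.60 to -0.12. The median correlation of an array with the other 47 was 0.989 in CT60 to CT65 and 0.994 in CT36 to CT41, lowest at CT61 with 0.984.

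The distance between the 3′ and 5′ probe sets of a transcript, which widens when RNA is broken or copied short, was larger in CT60 to CT65 for Actb (1.97 ± 0.42 log2 units, against 1.54 ± 0.11 in CT36 to CT41) and for Gapdh (0.13 ± 0.25, against -0.0032 ± 0.052 in CT36 to CT41). For Pcx it was 4.47 ± 1.25 in CT60 to CT65 and 3.59 ± 0.28 in CT36 to CT41, and for Tfrc 2.08 ± 0.24 in CT60 to CT65 and 2.26 ± 0.27 in CT36 to CT41. CT60 was the extreme pool, at 2.82 for Actb, 0.62 for Gapdh and 6.92 for Pcx. Without the pair of CT60 the mean differences were 0.25 for Actb, 0.056 for Gapdh and 0.47 for Pcx, against 0.42, 0.13 and 0.88 with it. Wide distances also occurred on the first day, with 2.36 for Actb and 5.58 for Pcx at CT27. At CT31 they were 2.22 and 5.10, whereas CT61 had 1.87 and 3.44. By an exact sign-flip permutation test over the 6 pairs, two-sided, 8 of 11 array measures reached p = 0.03125, the smallest p that 6 pairs allow, or 0.043 after adjustment over the 11. By the same exact permutation test the exceptions were the controls added before labelling (p = 0.3125), Pcx (p = 0.09375) and Tfrc (p = 0.156). The part of these array differences in the changes of liver genes was not tested, and since the sources used here give no hybridization batch, a batch and the last hours cannot be told apart.

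**Figure D2:**
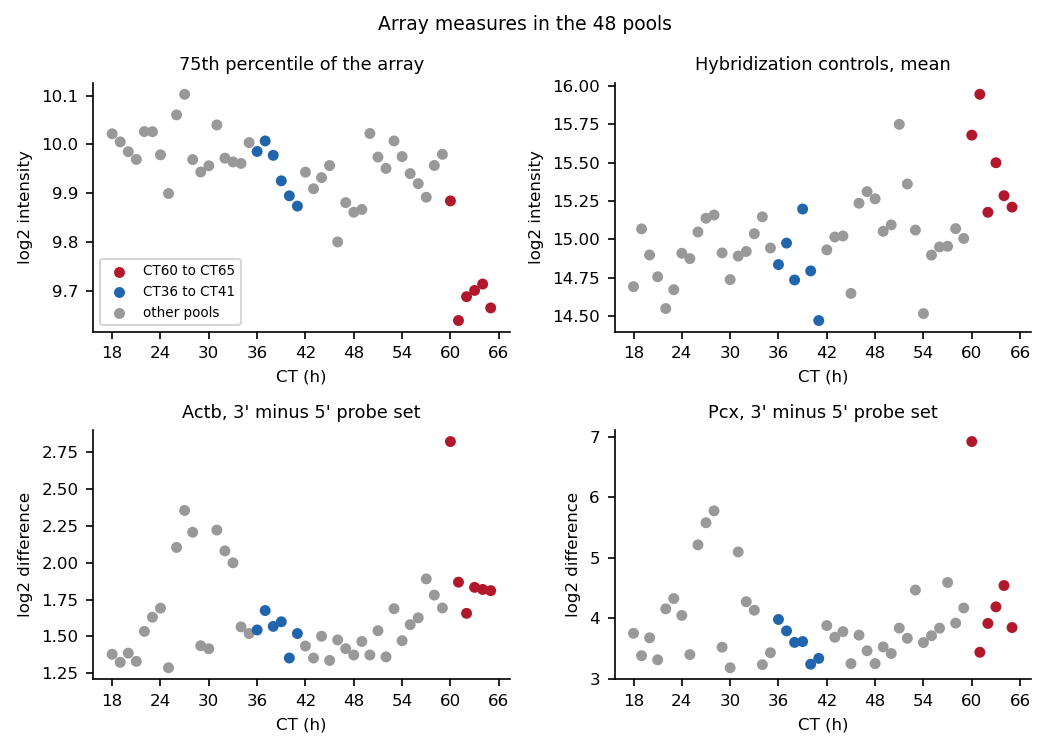
Array measures in each of the 48 pools against CT in hours, with CT60 to CT65 in red, CT36 to CT41 in blue and the other pools in grey: 75th percentile of log2 intensity, mean log2 intensity of the hybridization controls, and the log2 difference between 3′ and 5′ probe sets of Actb and Pcx. The pools from CT61 to CT65 have the lowest 75th percentiles, and CT60 the widest distances between the ends of both transcripts.

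The deepest falls were in genes of varied known roles. Cathepsin E (Ctse), an aspartic protease, had a lowest, median and highest intensity of 116.3, 262.1 and 453.6 in CT60 to CT65 and 1099.2, 1613.7 and 2165.6 in CT36 to CT41, a difference of -2.72 ± 0.20 (SE, adjusted p = 0.00312). All 6 late pools lay below all 6 earlier ones. Fgfr4, the hepatocyte receptor through which an intestinal FGF restrains bile acid synthesis, had 163.6, 257.2 and 1271.2 in CT60 to CT65 and 1601.1, 1731.2 and 1877.6 in CT36 to CT41 (-2.48 ± 0.41, adjusted p = 0.0123). Its groups did not overlap either, yet the CT60 pool stood far above the other late pools. The same held for Hes1, a transcriptional repressor downstream of Notch, with 64.9, 110.4 and 304.9 in CT60 to CT65 and 498.5, 586.9 and 673.9 in CT36 to CT41 (-2.34 ± 0.36, adjusted p = 0.0111).

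The 12 genes with the largest called falls in all 6 pairs also included Atp6v0a1 (a subunit of the vacuolar proton pump, -2.72), Anpep (aminopeptidase N, -2.49), Dnaaf5 (-2.33), Fat1 (an atypical cadherin, -2.28), Cmip (-2.23), Slc44a2 (a choline transporter-like protein, -2.20), Fam20a (-2.15), Rptor (the scaffold of the mTORC1 kinase complex, -2.12) and Pcdh1 (a protocadherin, -2.03). In 11 of the 12 the groups did not overlap, and all 12 were called lower after quantile normalization and differed from the other hours. The 12 were picked for large falls in these same pools, so these counts follow in part from the choice and are no separate support. In 9 of the 12, CT60 was the highest of the 6 late pools. That was general: among the 1469 genes of at least 100 intensity called lower by more than 1.5-fold, CT60 was the highest late pool in 1149 (78.2%), and their median difference was -0.39 at CT60, -1.22 at CT61, -0.93 at CT62, -0.80 at CT63, -0.88 at CT64 and -0.88 at CT65.

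The largest rises were smaller. Gm4274 had 3201.3, 4137.5 and 5854.2 in CT60 to CT65 and 848.6, 1919.8 and 2797.5 in CT36 to CT41, a difference of 1.37 ± 0.30 (adjusted p = 0.0194) with no overlap. Its mean over all 48 pools was 3293.7, between the means of 4290.6 in CT60 to CT65 and 1835 in CT36 to CT41. In the 3 other blocks of 6 h its change was -0.89, -0.40 and 0.17. Hoxa5, a homeobox transcription factor, had 783.1, 979.6 and 1968.5 in CT60 to CT65 and 337.7, 483.7 and 587.7 in CT36 to CT41 (1.24 ± 0.17, adjusted p = 0.00998). The others were Syt11 (0.99), Gm3715 (0.99), Kbtbd13 (0.96), Hectd2os (0.94), Zfp141 (0.92), Far1 (a fatty acyl-CoA reductase, 0.92), Mtm1 (the phosphoinositide phosphatase myotubularin, 0.91), Zfp119b (0.90), 3110021A11Rik (0.89) and Pdcl (0.88). The groups were separate in 7 of the 12, and 10 differed from the other hours, the exceptions being Hectd2os and Zfp119b. Quantile normalization left 11 called, all but Gm3715. These 12 were likewise picked for large changes in the same pools. Hoxa5, Syt11, Kbtbd13 and 3110021A11Rik among the rises, and Ctse and Slc44a2 among the falls, were read through probe sets whose names mark probes shared between transcripts, so their values may hold other RNAs.

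**Figure D3:**
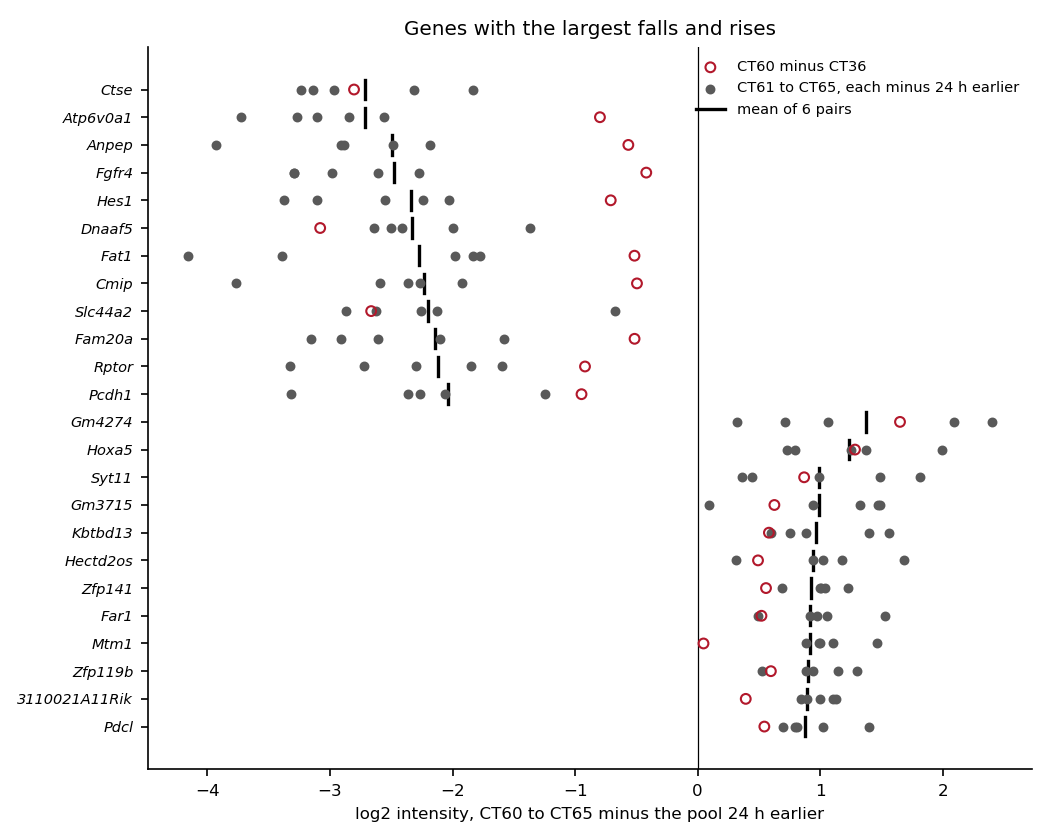
Paired log2 differences (x axis, CT60 to CT65 minus the pool 24 h earlier) of the 12 genes with the largest falls and the 12 with the largest rises, with an open red circle for CT60 minus CT36, grey points for the 5 later pairs and a black tick for the mean. In 9 of the 12 falling genes the circle of CT60 lies nearest to 0 or to the right of the other pairs.

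Both Zfp141 and Zfp119b encode zinc finger proteins, and the genes whose symbols begin with Zfp were therefore counted, a group chosen after its values were seen. Of 245 such genes with a mean intensity of at least 100, 76 were called higher and 21 lower, with a median difference of 0.14, against -0.04 over all genes of that intensity. After quantile normalization 60 were called higher and 7 lower. The group was not matched for intensity. All probe sets between 100 and 200 had a median difference of 0.13 with 33.1% called higher, and 2.53% called higher after quantile normalization. In brighter classes the share called higher after quantile normalization was larger: 8.53% between 200 and 500, 13.7% between 500 and 1000 and 18.4% between 2000 and 5000.

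Fatty acid and triglyceride synthesis had the lowest median of the 47 lists with at least 8 measured genes. Of 19 genes measured, 14 were called lower and 1 higher, with a median of -0.77, against 26.4% lower and a median of -0.04 among all genes of at least 100 intensity. The median was -0.71 after quantile normalization, with 10 called lower and 0 higher, and between -0.89 and -0.54 under the other scalings. In the 3 other blocks of 6 h it was -0.29, -0.08 and -0.14. Without the pairs of CT60 and CT61, 11 were called lower. In the test of the difference from the other hours, 8 of the 19 were called lower and 0 higher.

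Fasn, the fatty acid synthase, had a lowest, median and highest intensity of 6764.5, 18187.8 and 25293.5 in CT60 to CT65 and 19986.7, 39204.7 and 71782.7 in CT36 to CT41, a difference of -1.23 ± 0.19 (adjusted p = 0.0116; difference from the other hours -0.89, adjusted p = 0.0607). The groups overlapped, but each late pool was below its own partner. Acaca, the acetyl-CoA carboxylase that makes malonyl-CoA for synthesis, had 1278.4, 2380.8 and 3544.2 in CT60 to CT65 and 3904.7, 4816.5 and 5621.1 in CT36 to CT41 (-1.12 ± 0.19, adjusted p = 0.0125). Its mitochondrial counterpart Acacb, whose malonyl-CoA restrains fatty acid oxidation, fell by 1.32 (SE 0.12, adjusted p = 0.00492). The groups of Acacb overlapped, with a highest late value of 1270.4 and a lowest earlier value of 1109.9. Acacb was also lower in each of the other blocks (-0.62, -0.66 and -0.49). By limma its difference from those hours was not called (-0.72, adjusted p = 0.0768). Fads1, a desaturase of polyunsaturated fatty acids, had 12448.7, 17421.2 and 34729.5 in CT60 to CT65 and 35431.9, 38983.9 and 47080.3 in CT36 to CT41 (-1.09 ± 0.15, adjusted p = 0.00953), and its highest late value was again that of CT60.

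Srebf1, which encodes the SREBP-1 transcription factors that activate this pathway, fell by 0.95 (SE 0.23, adjusted p = 0.0239) but in only 5 of 6 pairs, and it was not called after quantile normalization (-0.85, adjusted p = 0.0716). At CT60 its intensity was 25196.8, against 23815.8 at CT36. Scd1, the stearoyl-CoA desaturase, is among the brightest liver transcripts. It fell by 0.44 (SE 0.03, adjusted p = 0.0021), with 269803, 295789 and 329597 in CT60 to CT65 and 359718, 415598 and 441048 in CT36 to CT41, and without overlap. The member called higher was Thrsp, a lipogenic nuclear protein (0.21 ± 0.07, adjusted p = 0.0473), a call lost after quantile normalization. Srebf1, Scd1 and Thrsp were picked after their values were seen.

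**Figure D4:**
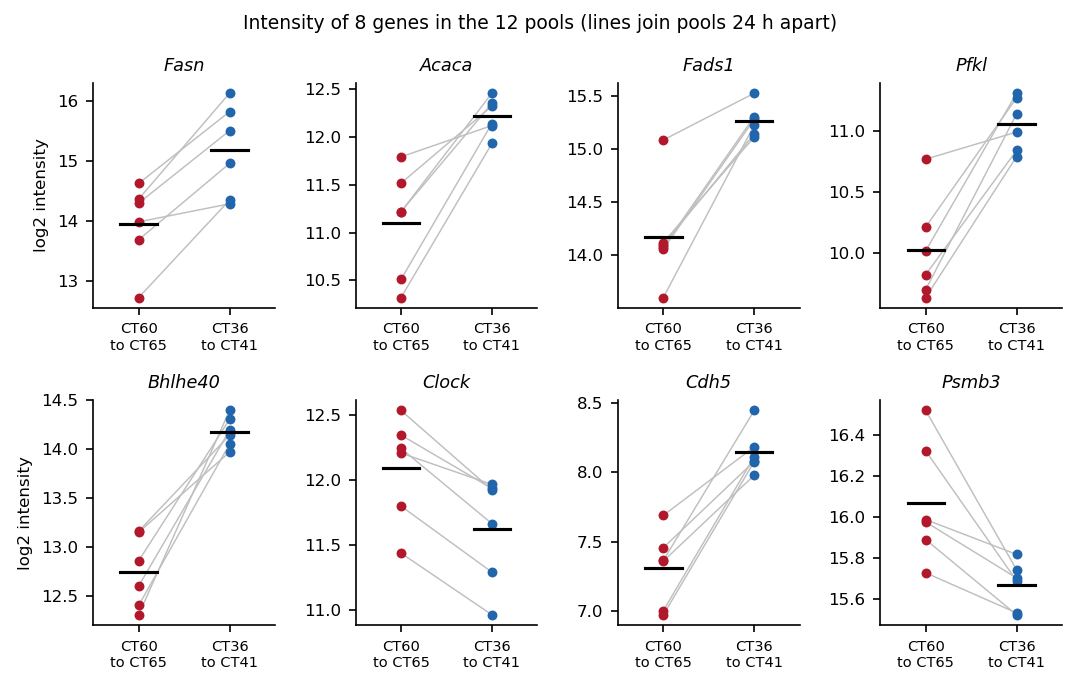
Log2 intensity of 8 genes in CT60 to CT65 (left, red) and CT36 to CT41 (right, blue), with grey lines joining pools 24 h apart and black bars at the means. Fasn, Acaca, Fads1, Pfkl, Bhlhe40 and Cdh5 are lower in every late pool than in its partner, and Clock and Psmb3 are higher in every one.

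The promoter sequences of the genes that moved differed in base composition. Promoter windows run from 250 bases before to 50 after the start (RefSeq, GRCm38.p6) and were matched for 9075 of the 11185 genes of at least 100 intensity (81.1%). In 5 classes of GC content of similar size, lowest first, the median difference was 0.08, -0.05, -0.07, -0.11 and -0.15, and after quantile normalization 0.09, 0.02, -0.01, -0.02 and -0.05. Across genes, which are not independent replicates, Spearman's rho between GC content and change was -0.19, and it was -0.15, -0.12 and -0.16 in the 3 other blocks. The letters GGGCGG, the core of a GC box, or their reverse complement CCGCCC stood in 74.1% of windows of genes called lower, in 54% of genes called higher and in 65.8% of all 9075. CCAAT or ATTGG stood in 10 of the 15 windows matched for fatty acid and triglyceride synthesis and in 42.9% of the 9075 genes, and GGGCGG or CCGCCC stood in 8 of those 15. Over all 32851 windows of the table, taken singly, 35.7% held GGGCGG or CCGCCC and 37.4% held CCAAT or ATTGG. These matches describe letters, not bound sites. Pfkl and Zfp141 are shown as a gene that fell and a gene that rose, with GGGCGG in capitals (3 copies in Pfkl, of which 2 overlap, and none on either strand in Zfp141), and Fasn with CCAAT and ATTGG in capitals (1 copy of CCAAT and 2 of ATTGG, one of which overlaps it). GC content was 62.3% in Pfkl, 50.3% in Zfp141 and 69.3% in Fasn.
Pfkl, chr10:78009758-78010057, minus strand: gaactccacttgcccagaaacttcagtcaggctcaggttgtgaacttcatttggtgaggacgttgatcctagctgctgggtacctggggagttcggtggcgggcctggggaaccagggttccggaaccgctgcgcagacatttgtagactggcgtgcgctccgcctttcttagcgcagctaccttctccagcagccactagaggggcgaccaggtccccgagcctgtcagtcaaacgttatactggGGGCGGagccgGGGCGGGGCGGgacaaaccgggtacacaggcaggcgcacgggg
Zfp141, chr7:42505704-42506003, minus strand: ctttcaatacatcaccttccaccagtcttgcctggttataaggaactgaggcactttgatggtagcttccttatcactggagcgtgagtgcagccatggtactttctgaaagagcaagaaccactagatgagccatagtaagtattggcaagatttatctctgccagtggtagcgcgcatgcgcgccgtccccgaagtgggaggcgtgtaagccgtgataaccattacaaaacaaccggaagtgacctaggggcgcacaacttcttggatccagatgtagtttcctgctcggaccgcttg
Fasn, chr11:120824498-120824797, minus strand: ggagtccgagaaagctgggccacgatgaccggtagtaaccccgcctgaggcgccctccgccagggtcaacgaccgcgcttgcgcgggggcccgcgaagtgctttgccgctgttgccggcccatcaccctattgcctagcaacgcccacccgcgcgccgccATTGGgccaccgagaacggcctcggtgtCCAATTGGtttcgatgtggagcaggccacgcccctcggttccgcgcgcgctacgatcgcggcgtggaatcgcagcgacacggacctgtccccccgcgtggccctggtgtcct

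In insulin signaling and glycolysis the genes called were all lower as deposited. Of 13 genes of insulin receptor signaling 8 were called lower and 0 higher (median -0.59), but only 2 lower and 1 higher after quantile normalization (median -0.36). Trib1, a pseudokinase that promotes the degradation of C/EBP proteins, had 334.8, 376.4 and 478.0 in CT60 to CT65 and 693.0, 871.1 and 1079.4 in CT36 to CT41 (-1.20 ± 0.09, adjusted p = 0.00346). The insulin receptor Insr (-0.95 ± 0.22, adjusted p = 0.0204) and Foxo1, the transcription factor that insulin keeps out of the nucleus (-1.11 ± 0.27, adjusted p = 0.023), were lower in 5 of 6 pairs, and neither was called after quantile normalization (-0.78, adjusted p = 0.0569 for Insr and -0.88, adjusted p = 0.0697 for Foxo1). At CT60 they were not reduced: Insr had 11784.4 at CT60 and 11508.2 at CT36, and Foxo1 had 4384.4 and 4217.9. Igfbp1, which insulin represses, was not called (-0.65 ± 0.84).

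Of 8 glycolysis genes 6 were called lower and 0 higher (median -0.38, and -0.33 with 4 lower after quantile normalization). Pfkl, the liver phosphofructokinase, had 796.1, 971.4 and 1741.9 in CT60 to CT65 and 1766.3, 2138.9 and 2529.1 in CT36 to CT41 (-1.03 ± 0.16, adjusted p = 0.0114). Pklr, the liver pyruvate kinase, fell by 0.89 (SE 0.16, adjusted p = 0.014). Pklr was also lower in the 3 other blocks (-0.50, -0.22 and -0.50), and by limma its difference from those hours was not called (adjusted p = 0.0728). Without the pairs of CT60 and CT61 only 2 glycolysis genes were called lower. In the growth hormone and IGF axis 4 of 10 genes were called lower and 1 higher (median -0.53). Igfals, which stabilizes circulating IGF complexes, had 2415.5, 3569.9 and 4956.8 in CT60 to CT65 and 6274.0, 7720.7 and 9348.2 in CT36 to CT41, a difference of -1.14 ± 0.12 (adjusted p = 0.00571).

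In fatty acid oxidation too, more genes were called lower than higher. Of 18 genes of fatty acid oxidation and PPAR alpha targets, 10 were called lower and 1 higher (median -0.29, and -0.24 with 7 lower after quantile normalization). Cpt1a, which controls the entry of fatty acids into mitochondria, had 10139.0, 11172.5 and 27296.3 in CT60 to CT65 and 20965.4, 29331.4 and 44622.4 in CT36 to CT41 (-1.14 ± 0.12, adjusted p = 0.00612). Hadhb, a subunit of the mitochondrial trifunctional protein, was the member called higher (0.30 ± 0.05, adjusted p = 0.0125).

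Among enzymes of amino acid, bile acid and drug metabolism most lists held calls in both directions. So did all genes of at least 100 intensity, of which 26.4% were called lower and 17% higher, so this is not particular to these lists. Among 17 genes of amino acid breakdown and the urea cycle 9 were called lower and 3 higher, the last including Otc, ornithine transcarbamylase, with 286720, 316577 and 379798 in CT60 to CT65 and 196182, 224616 and 241485 in CT36 to CT41 (0.56 ± 0.04, adjusted p = 0.00346). Of 14 serine, glycine and one-carbon enzymes 7 were called lower and 0 higher, led by Gldc of the glycine cleavage system (-1.17 ± 0.23, adjusted p = 0.0155) and the mitochondrial serine hydroxymethyltransferase Shmt2 (-1.12 ± 0.11, adjusted p = 0.00516). The median of that list was only -0.08 and turned to 0.15 with division by the 75th percentile. Pcx, pyruvate carboxylase, fell by 1.13 (SE 0.18, adjusted p = 0.0119) among 6 of 12 genes of gluconeogenesis and glycogen that were called lower, with a median of -0.18 that turned to 0.04 under that scaling. In that list 3 genes were called lower after quantile normalization, and 1 without the pairs of CT60 and CT61. In bile acid synthesis and transport 3 of 12 were called lower and 2 higher, close to the shares of all genes of at least 100 intensity. Cyp8b1, the sterol 12-alpha-hydroxylase, had 12940.1, 18256.3 and 25223.2 in CT60 to CT65 and 28755.4, 39323.2 and 56855.4 in CT36 to CT41 (-1.16 ± 0.06, adjusted p = 0.00192). Among 16 xenobiotic cytochrome P450s 3 were called lower and 4 higher, with Cyp2d22 at -1.45 ± 0.20 (adjusted p = 0.00985) and Cyp2c29 at 0.37 ± 0.06 (adjusted p = 0.0117).

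Secreted plasma proteins also held calls in both directions, against 26.4% lower and 17% higher among all genes of at least 100 intensity. Of 22 coagulation and complement genes 9 were called lower and 5 higher, with Masp1, a protease of the lectin pathway of complement, at -0.90 ± 0.15 (adjusted p = 0.0126) and Mbl1, a mannose-binding lectin of the same pathway, at 0.53 ± 0.11 (adjusted p = 0.017). Of 20 acute phase genes 5 were called higher and 1 lower, the last being Itih4 (-0.94 ± 0.19, adjusted p = 0.0156). The intensity of Itih4 at CT60 was 160283, against 184553 at CT36, and the other late pools were lower. Cirbp, the cold-inducible RNA binding protein, fell by 1.07 (SE 0.10, adjusted p = 0.00502), with 110.3, 163.4 and 468.9 in CT60 to CT65 and 210.2, 402.7 and 814.4 in CT36 to CT41.

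More cytosolic ribosomal protein and proteasome genes were called higher than lower. Of 16 ribosomal protein genes 10 were called higher and 2 lower (median 0.12, and 0.14 with 7 higher and 2 lower after quantile normalization), and the median stayed above 0 under every scaling. Rpl37 had 12297.3, 16650 and 17776.3 in CT60 to CT65 and 6757.2, 10229.1 and 10971.5 in CT36 to CT41 (0.76 ± 0.03, adjusted p = 0.00128). Of 24 proteasome subunits 10 were called higher and 3 lower (median 0.10, and -0.01 with arrays centred on the median). Psmb3, a subunit of the catalytic core, was higher by 0.40 (SE 0.09, adjusted p = 0.0212). Without the pairs of CT60 and CT61, 6 ribosomal protein genes were called higher and 2 lower, and 2 proteasome genes were called higher and 2 lower.

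Among the clock genes most were not called. Of 20 core clock and PAR bZIP genes 6 were called lower and 2 higher (4 and 1 after quantile normalization), and the median of -0.23 became 0.00 with division by the 75th percentile. In the test of the difference from the other hours 3 were called lower and 1 higher. Bhlhe40, a repressor of CLOCK and BMAL1 activity, had 5086.8, 6845.0 and 9187.1 in CT60 to CT65 and 16074.0, 18425.9 and 21574.9 in CT36 to CT41 (-1.43 ± 0.17, adjusted p = 0.00792), with no overlap. Dbp, a PAR bZIP activator driven by the clock, fell by 1.001 (SE 0.24, adjusted p = 0.0223) and its relative Hlf by 0.84 (SE 0.17, adjusted p = 0.0165), each in 5 of 6 pairs. The call for Dbp was lost after quantile normalization (-0.90, adjusted p = 0.0724). Hlf was also lower in the 3 other blocks (-0.41, -0.37 and -0.54). By limma the difference from those hours was called for neither (adjusted p = 0.221 for Dbp and 0.216 for Hlf). Cry2 (-0.60) and Tef (-0.48) were called lower too, although Tef lost its call after quantile normalization (-0.36, adjusted p = 0.0692), as was Csnk1e (-0.15), whose sign turned with division by the 75th percentile (0.08). Clock was higher in 6 of 6 pairs, with 2769.3, 4781.5 and 5925.0 in CT60 to CT65 and 1993.2, 3559.8 and 3994.1 in CT36 to CT41 (0.47 ± 0.05, adjusted p = 0.00639). The other gene called higher was Bhlhe41, at the dim end of the array with a difference of 0.05, which turned to -0.07 with arrays centred on the median. Arntl (-0.04), Nr1d2 (-0.04), Rora (0.02), Npas2 (0.11), Per1 (-0.13), Per2 (-0.22), Per3 (0.24), Cry1 (-0.38), Csnk1d (-0.24), Nr1d1 (-0.48), Nfil3 (-0.65) and Ciart (-0.71) were not called. The signs of Arntl, Nr1d2, Npas2, Per1, Per2 and Rora turned under at least 1 scaling. For genes with steep daily rhythms a small shift in time gives a large difference at one hour: with pools 25 h earlier as partners, Arntl had a difference of 0.66.

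**Figure D5:**
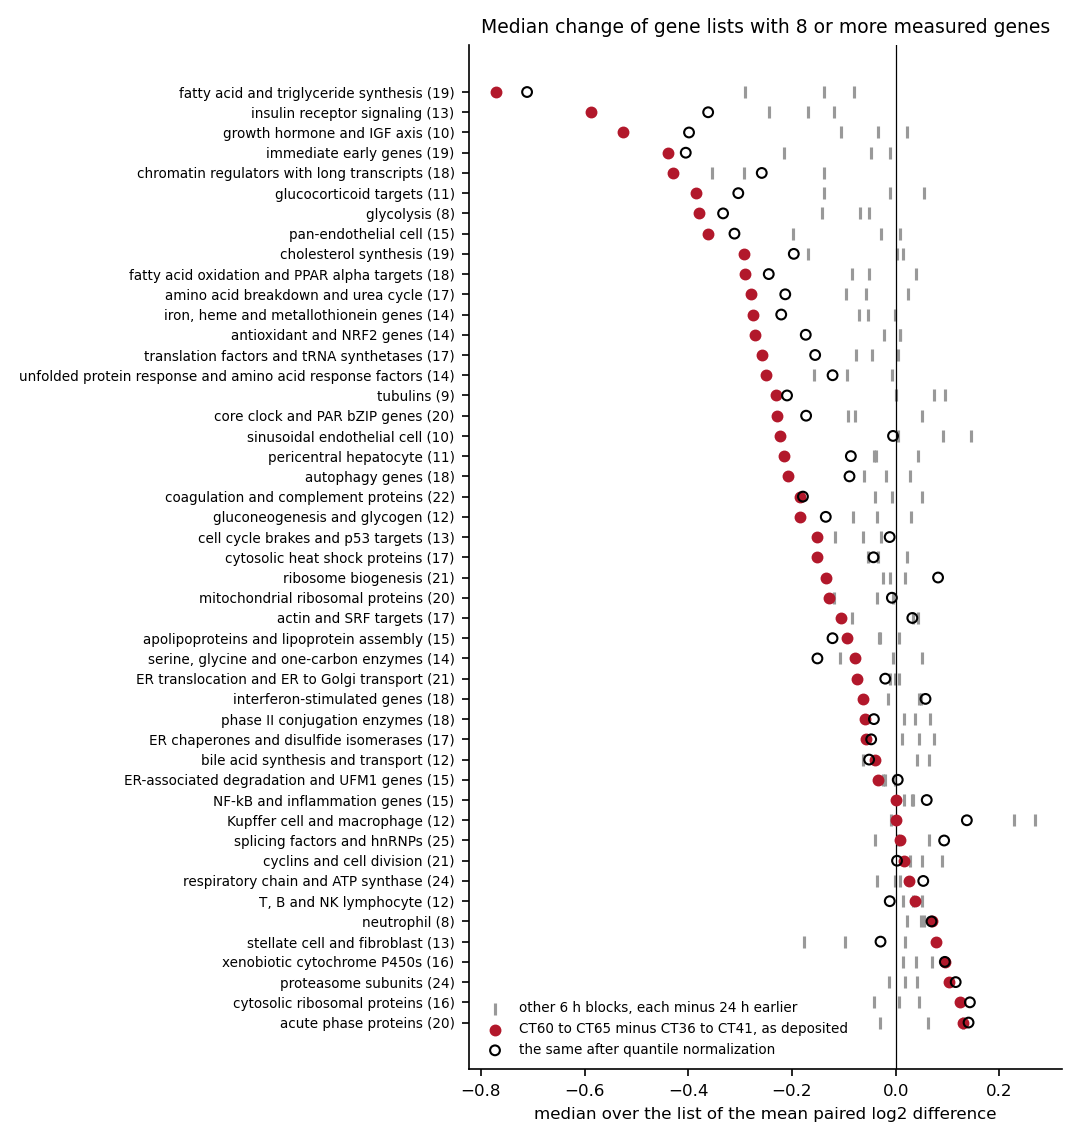
Median over each list of the mean paired log2 difference (x axis), for the 47 lists with at least 8 measured genes (number in brackets), with red points for CT60 to CT65 minus CT36 to CT41 as deposited, open circles for the same after quantile normalization and grey ticks for the 3 other blocks of 6 h. Fatty acid and triglyceride synthesis lies lowest at -0.77 and acute phase proteins highest at 0.13.

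Markers of cell types were read beside these changes. The hepatocyte markers Alb (0.07 ± 0.03) and Ttr (0.03 ± 0.02) were not called, and both turned below 0 with arrays centred on the median. Of 5 hepatocyte markers 1 was called lower, Tat, a tyrosine aminotransferase (-0.38 ± 0.12, adjusted p = 0.0436), a call lost after quantile normalization with a difference of -0.42. The summed intensity of 5 hepatocyte markers ran from 3007080 to 3168860 in CT60 to CT65 and from 2988260 to 3137170 in CT36 to CT41, a sum that the brightest members dominate. Markers of zones within the hepatocyte plate fell in part, with 4 of 7 periportal and 5 of 11 pericentral genes called lower and 0 higher (medians -0.47 and -0.22, the second turning to 0.01 with division by the 75th percentile). After quantile normalization 4 periportal and 3 pericentral genes were called lower. Without the pairs of CT60 and CT61 these counts were 2 and 1.

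Endothelial markers fell as a group in one list and split in the other. Of 15 pan-endothelial genes 9 were called lower and 0 higher (median -0.36, and -0.31 with 6 lower after quantile normalization), and their summed intensity was 16591.1 to 27658.3 in CT60 to CT65 and 27842.9 to 31556.9 in CT36 to CT41. Cdh5, the adhesion molecule of endothelial junctions, had 125.4, 164.4 and 206.4 in CT60 to CT65 and 252.3, 273.7 and 349.1 in CT36 to CT41 (-0.84 ± 0.11, adjusted p = 0.00894), and Sox18, an endothelial transcription factor, fell by 0.84 (SE 0.06, adjusted p = 0.00272). Kdr, a receptor for VEGF, was called (-0.68 ± 0.17, adjusted p = 0.0241), yet at CT60 it had 2297.3, against 2030.0 at CT36, and Pecam1 was called with a difference of -0.36 ± 0.11 (adjusted p = 0.0413). Neither call was kept after quantile normalization. Of 10 sinusoidal endothelial genes 3 were called lower and 3 higher, against 26.4% and 17% of all genes of at least 100 intensity. The scavenger receptor Stab2 had 1339.2, 2261.1 and 4350.4 in CT60 to CT65 and 4178.3, 4355.0 and 5325.9 in CT36 to CT41 (-1.01 ± 0.20, adjusted p = 0.0157), whereas the lectin Clec4g (0.31 ± 0.05, adjusted p = 0.0131) and the Fc receptor Fcgr2b (0.37 ± 0.09, adjusted p = 0.0252) were higher. Both were also higher in the 3 other blocks of 6 h (0.15, 0.35 and 0.27 for Clec4g, and 0.29, 0.43 and 0.33 for Fcgr2b), and the difference from those hours was not called (adjusted p = 0.777 and 0.958). Without the pairs of CT60 and CT61, 2 sinusoidal genes were called lower and 0 higher, and 8 pan-endothelial genes lower. Lyve1 (-0.25 ± 0.24) and Stab1 (-0.56 ± 0.25) were not called. The summed intensity of these 10 genes was 61794.1 to 68817.3 in CT60 to CT65 and 54637.6 to 62770 in CT36 to CT41. In whole liver, fewer cells of a type and less RNA per cell cannot be told apart.

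Of 12 Kupffer cell and macrophage markers 2 were called lower and 1 higher. Cd68, a lysosomal protein, had 226.8, 276.3 and 350.3 in CT60 to CT65 and 592.3, 746.5 and 1191.0 in CT36 to CT41 (-1.55 ± 0.17, adjusted p = 0.00691), while Clec4f, a lectin of Kupffer cells, was not called (0.18 ± 0.07) and the summed intensity overlapped, with 85474.3 to 115032 in CT60 to CT65 and 92559.6 to 110481 in CT36 to CT41. Of 13 stellate cell and fibroblast genes 3 were called lower and 2 higher. No marker of lymphocytes, neutrophils, bile duct, blood or pancreatic acinar cells was called lower. Those called higher were 5 of 12 lymphocyte, 4 of 8 neutrophil, 5 of 7 pancreatic, 1 of 5 bile duct, 1 of 4 erythroid and 1 of 4 platelet genes. After quantile normalization 1 lymphocyte and 1 erythroid gene were called higher and none of the others. Only 6 lymphocyte and 2 neutrophil markers reached a mean intensity of 100, and 57.3% of all probe sets below 100 and 33.1% of those between 100 and 200 were called higher. The part of cell composition in the falls of lipogenic and other hepatocyte genes was not tested.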

How the data were processed

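Whole-liver RNA of 48 hourly pools was read on Affymetrix Mouse Genome 430 2.0 arrays, 1 per pool. The authors deposited 1 linear intensity per probe set and pool. By their methods these are GCRMA values, while the submitters' processing notes name MAS5, and the distributions of the arrays are not identical. The intensities were taken to log2 as deposited, with no further normalization in the main test. For each of 45101 probe sets the 6 paired differences (CT60 to CT65 minus CT36 to CT41) were tested against 0 with limma 3.58.1 in R 4.3.3, with Benjamini-Hochberg adjustment over all probe sets and a threshold of 0.05. A fit over the 24 pairs compared the change with that of the 3 other blocks of 6 h. Array measures were tested by exact sign flips of the pairs.

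Genes were read through the probe set of highest mean log2 among those with a single symbol. Named genes were the 12 largest falls and rises among genes called, changed alike in 6 of 6 pairs and with a mean intensity of at least 100, up to 4 called members of a list, all clock genes and defining cell type markers, and others (Srebf1, Scd1, Thrsp, Igfbp1 and the Zfp genes among them) were chosen after their values were seen. The comparison, gene lists and tests were chosen with earlier results of these data known. Deviations of same-hour pools from their group means correlated at 0.11 to 0.39 in all 6 pairs (median 0.20). For other hours the values ran from -0.38 to 0.34 (median -0.08), and only 3 of 6 late pools correlated best with their own hour. Deviations from a group mean add up to 0, which by itself lowers the other-hour values where same-hour values are positive. Tested on simulated data, the paired test recovered 35% of probe sets changed by 1.5-fold and 61% of those changed by 2-fold, with 7 false calls of 45101. The simulated differences were drawn independently for each probe set around 0, with no shift shared by a whole array. The arrays used here do have such shifts, so the 7 false calls do not measure the false calls among the real ones. The number of arrays limits the precision. Alternatives were other scalings, an added constant of 50, filters, partners 23 h or 25 h earlier, pairs left out, and a fit without pairing.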

Additional observations from a re-analysis of the deposited data

Results flagged for a closer look

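A single pool stood apart from the other 5 of its group in 25 of 194 groups of values examined, where chance flags about 1 in 20. CT60 was that pool for Atp6v0a1 (944.7), 3110021A11Rik (1952.4), Fads1 (34729.5), Thrsp (240108), Foxo1 (4384.4), Insr (11784.4), Cpt1a (27296.3), Pcx (23875.8), Rpl37 (12297.3), Per1 (969), Cry2 (2505.6) and Tef (14877). On the array measures CT60 stood apart for the 75th percentile (9.88), the 90th percentile (12.6) and the distances between the 3′ and 5′ probe sets of Actb (2.82), Gapdh (0.619) and Pcx (6.92). CT61 stood apart for Npas2 (88.8), Nfil3 (585.6) and the correlation with other arrays (0.984). The others were CT65 for Slc44a2 (208.4), CT62 for the controls added before labelling (9.65), CT37 for Syt11 (950.5) and Per3 (580.5), and CT39 for Far1 (891.2).

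For 53 of 86 named genes the change at CT60 to CT65 differed from the mean change of the other hours of the second day by limma's test of that difference, downwards in 37 and upwards in 16, against 11.8% and 6.9% of all genes. Many of the 86 were named for being called or for large changes in the same comparison, which raises that count. Among the largest falls the differences in log2 units were -2.41 for Ctse, -2.36 for Dnaaf5, -2.29 for Hes1, -2.27 for Fgfr4, -2.25 for Anpep, -2.15 for Atp6v0a1, -2.01 for Fat1 and Fam20a, -1.89 for Cmip, -1.70 for Slc44a2, -1.64 for Rptor and -1.47 for Pcdh1. Among lipid, sugar and hormone genes they were -0.75 for Acaca, -0.93 for Fads1, -0.91 for Srebf1, -0.37 for Scd1, -1.005 for Cpt1a, -0.77 for Pfkl, -0.90 for Pcx, -0.66 for Trib1, -0.81 for Foxo1, -0.71 for Insr and -1.20 for Igfals. Other hepatocyte enzymes and secreted proteins gave -1.16 for Gldc, -0.97 for Shmt2, -1.08 for Cyp8b1, -1.37 for Cyp2d22, -0.73 for Masp1 and -0.89 for Itih4. The RNA binding protein gene Cirbp gave -0.92. Cell markers gave -0.68 for Cdh5, -1.001 for Sox18, -0.87 for Stab2 and -1.69 for Cd68, and clock genes -1.20 for Bhlhe40, -0.51 for Cry2, -0.43 for Csnk1d and 0.32 for Clock. Upwards differences were 1.75 for Gm4274, 1.08 for Hoxa5, 1.07 for Mtm1, 0.90 for Syt11, 0.89 for Far1, 0.85 for Gm3715 and Zfp141, 0.66 for Kbtbd13, 0.64 for 3110021A11Rik, 0.58 for Psmb3, 0.56 for Pdcl, 0.52 for Mbl1, 0.49 for Rpl37, 0.39 for Otc and 0.25 for Cyp2c29.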

How the results depend on the processing

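Leaving out 1 pair at a time gave 3097 to 4763 probe sets lower and 6086 to 15179 higher. The count of 5005 lower fell most without CT62 (3097), and the count of 17130 higher without CT60 (10009), CT62 (6086), CT64 (8377) or CT65 (8650). Without both CT60 and CT61, chosen after seeing the data, 2798 were lower and 1960 higher. Lower and higher counts were 2723 and 3042 after quantile normalization, 17393 and 1726 with arrays centred on the median, 3334 and 32549 with division by the 75th percentile, 2889 and 4966 with 1 probe set per gene, and 2291 and 376 with no test, for a mean change over 1.5-fold and all 6 pairs in the same direction. Higher counts were 3079 with a mean of at least 100 and 9221 with partners 23 h earlier. For the difference from the other hours (3696 downwards, 3220 upwards), leaving out 1 pair gave 2841 to 3892 and 1690 to 3962, the lowest upwards count without CT61. Centring gave 14422 and 1488, 1 probe set per gene 2269 and 1383, division by the 75th percentile 27792 upwards, and leaving out CT60 and CT61 1454 upwards. Beyond the smaller number of features or pools tested in some of these, the cause was not tested. A fit that ignored the pairing (no replicate block) called 4913 lower and 17299 higher. Of 1461 recomputed values of named genes 87 lost and 24 gained a call, and 4 that were called in either setting changed sign, and some genes called in neither setting also changed sign. The 4 were Ttr (-0.0813) and Bhlhe41 (-0.0663) with centring, Csnk1e (0.0833) with division by the 75th percentile and Arntl (0.66) with partners 25 h earlier.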
